A study of Mus musculus with 24 samples.

Results

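Bone marrow-derived macrophages (BMDM) treated with KLA for 12 h were compared with BMDM treated with DMSO for 12 h, as 2 samples against 2, which are 4 of the 24 samples in the series. The samples were chosen by their labels, and all genes measured on the arrays enter the comparison. KLA is Kdo2-lipid A, the lipid anchor of bacterial lipopolysaccharide and a specific agonist of Toll-like receptor 4 (TLR4), and DMSO was the control treatment. The BMDM came from C57BL/6 mice: marrow cells were grown with L-cell conditioned medium, which supplies M-CSF (macrophage colony-stimulating factor), the growth factor of these cells, and the adherent cells were replated overnight with added M-CSF before treatment. Of the other samples, BMDM at 1 h (KLA and DMSO, 2 samples each) and thioglycollate-elicited peritoneal macrophages (EPM) from the same strain at 12 h (KLA and DMSO, 2 samples each) are used here to show where the 12 h response of BMDM differed. Each condition was hybridised to 1 array of 2 colours, with 1 replicate in the Cy5 channel and the other in the Cy3 channel, so an effect of the array and an effect of KLA cannot be told apart, and p-values measure only the spread between the 2 channels of an array. The labels name them biological replicates and do not say whether they were separate cultures or animals.

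TLR4 acts through the adaptors MyD88 and TRIF. The first leads within a short time to NF-κB and to cytokine and chemokine genes, and the second leads to interferon-β, which then acts back on the same cells through STAT2 and IRF9 to raise interferon-stimulated genes. Macrophages grown in M-CSF are a dividing population, and the genes needed for DNA synthesis and for mitosis are transcribed in waves through the cycle, under E2F factors before S phase and under the MuvB, B-Myb and FoxM1 factors before mitosis.

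On the 4 channels, 58.2% to 61.0% of the 41174 probes were well above background and no spot was saturated. All 10 macrophage markers were well above background on all 4 channels, Csf1r (the M-CSF receptor), Adgre1 and Cd68 among them. None of the 8 NK cell markers was above background on all 4 channels, and the B cell markers Pax5, Cr2 and Fcer2a were above it on none. Of 8 stromal markers, all were above background and 5 were higher with KLA, their summed linear intensity being 7374 and 7574 in the DMSO channels and 9588 and 9590 in the KLA channels, and their part in the results below was not tested. The B cell sum was 29037 and 29276 with DMSO and 20036 and 22149 with KLA. Of the 10 markers, 3 were higher and 2, Blnk and Cd79b, were lower. Most of the sum came from Blnk, at 14.63 and 14.63 against 14.16 and 14.32 in log2 intensity. Cd79b was next, at 11.6 and 11.7 against 10.0 and 10.0, so the lower sum reflects these 2 genes and not the markers as a set. The part of the B cell sum was not tested either. The mast cell sum was 603 and 628 with DMSO and 5906 and 6091 with KLA, most of it from Hdc, the histidine decarboxylase gene, at 6.33 and 6.45 against 12.43 and 12.38 in log2 intensity, and its part was not tested. Of the other mast cell and basophil markers, Mcpt4 and Mcpt8 rose by 0.38 and 0.27, Fcer1a, Tpsb2 and Gata2 were not called, and Cpa3 and Ms4a2 were above background on none of the 4 channels.

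Among 17185 genes tested, 4929 (28.7%) were higher and 6262 (36.4%) were lower after 12 h of KLA by limma's test with a Benjamini-Hochberg adjusted p under 0.05, and the words rose and fell are used below only for genes past that test. Past 2-fold as well, 1079 genes (6.28%) rose and 1559 (9.07%) fell. The counts of list members that rose or fell at 12 h are to be read beside these shares. Higher genes made up 44.0% of the calls, and 29.9% when the arrays were not normalized to each other, a setting that moved the median log2 difference of all genes from -0.03 to -0.14. With arrays in place of channels as samples, where the DMSO arrays of 1 h and 12 h stood as 2 replicates of 1 control, 2381 genes were higher and 3589 lower. In RNA from a whole culture, fewer cells that express a gene and less RNA per cell cannot be told apart. All levels below are log2 intensities of single channels, and all differences are KLA minus DMSO on the log2 scale unless another comparison is named.

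**Figure D1:**
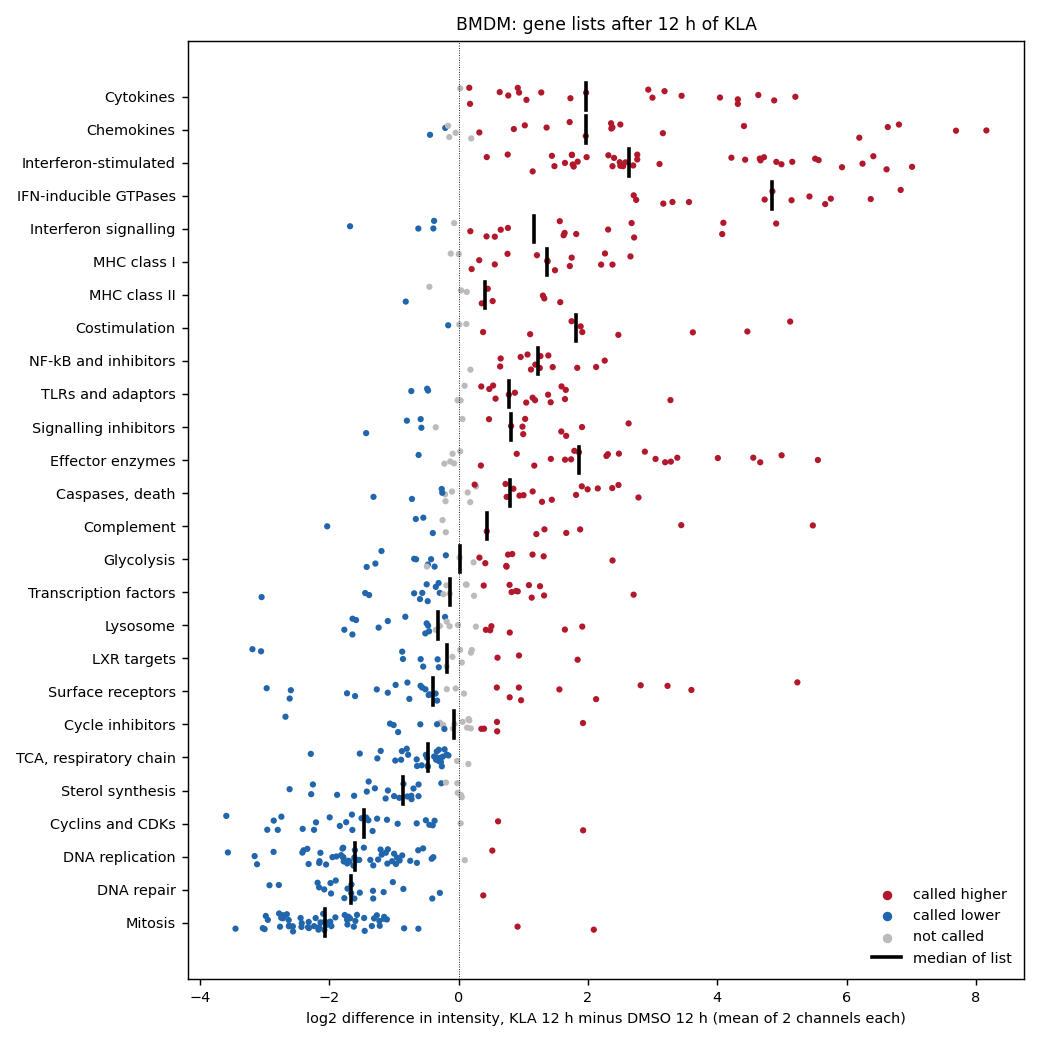
Log2 difference in intensity between BMDM treated with KLA and with DMSO for 12 h (x axis, mean of 2 channels each) for the tested members of 26 gene lists (rows); each point is a gene, red where called higher, blue where called lower and grey where not called, and the black bar is the median of the list. The medians run from 4.85 for the interferon-inducible GTPases to -2.07 for the mitosis genes.

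The genes that rose most included chemokines and interferon-stimulated genes. Ifit1bl1, of the Ifit family of antiviral RNA-binding proteins, measured 6.83 and 6.70 in the DMSO channels and 15.25 and 15.34 in the KLA channels, a log2 difference of 8.53 ± 0.08 (SE; limma's adjusted p = 9.25e-22), or 369-fold. Its probe lies at chr19:34659457-34659516 of mm8. Ccl5, a chemokine for T cells and monocytes, measured 9.31 and 9.48 in the DMSO channels and 17.54 and 17.58 in the KLA channels, a difference of 8.16 ± 0.14 (SE; limma's adjusted p = 6.10e-19), with its probe at chr11:83341989-83342048. Serpina3g, a serine protease inhibitor, measured 8.23 and 8.08 in the DMSO channels and 15.14 and 15.23 in the KLA channels. In all of these the channels of the 2 treatments lay far apart. Ifi205, Gbp2, Cxcl10, Isg20 and Cmpk2 followed, with differences of 7.01, 6.84, 6.64, 6.62 and 6.41. For 2 further chemokines of T cells the DMSO channels were not well above background, so only a lower bound can be given: Cxcl9 was at least 203-fold and Cxcl11 at least 111-fold higher with KLA.

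Pimreg, a mitotic regulator, measured 10.68 and 10.80 in the DMSO channels and 6.99 and 7.11 in the KLA channels, a difference of -3.69 ± 0.08 (SE; limma's adjusted p = 2.47e-17), or 12.9-fold lower, with its probe at chr11:71863206-71863265. Ccna2, cyclin A, needed in S phase and at the start of mitosis, measured 12.37 and 12.08 in the DMSO channels and 8.71 and 8.56 in the KLA channels, a difference of -3.59 ± 0.09 (SE; limma's adjusted p = 1.79e-16), with its probe at chr3:36756605-36756664. Tk1, the thymidine kinase of S phase, measured 12.47 and 12.68 in the DMSO channels and 8.89 and 9.13 in the KLA channels. In each of these, all among the largest decreases, both KLA channels lay under both DMSO channels. Gpr183, an oxysterol receptor that guides migration of immune cells, measured 10.16 and 10.25 in the DMSO channels and 6.46 and 6.61 in the KLA channels. Slc40a1, ferroportin, the exporter of iron, measured 12.68 and 12.52 in the DMSO channels and 9.22 and 9.14 in the KLA channels. Fasn, fatty acid synthase, measured 13.03 and 12.94 in the DMSO channels and 9.81 and 9.78 in the KLA channels on its brightest probe, and its other probe differed by -0.66. Pdxk, pyridoxal kinase, Ncapd2, a condensin subunit, and Amz1, a metalloprotease, fell by 3.52, 3.45 and 3.37. Sh3pxd2a, an adaptor of podosomes, fell by 3.22 on its brightest probe, while its probes ranged from -3.22 to 0.27.

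Secreted cytokines were called higher in 20 of the 21 tested, 14 of them over 2-fold, with a median difference of 1.97 against -0.03 over all genes. The 20 include Csf2, called at a difference of 0.17 though not well above background on any of the 4 channels. Il6 measured 6.05 and 6.07 in the DMSO channels and 11.30 and 11.24 in the KLA channels, with DMSO below background, so that it was at least 36.4-fold higher (limma's adjusted p = 8.49e-21). Il1b, an inflammatory cytokine released after caspase cleavage, measured 8.91 and 8.91 in the DMSO channels and 13.84 and 13.74 in the KLA channels. Its receptor antagonist Il1rn went from 11.76 and 11.70 to 15.29 and 15.06. Il12b, a subunit shared by IL-12 and IL-23, was at least 19.3-fold higher, whereas the partners Il12a and Il23a measured 6.38 and 6.39 and 5.97 and 5.98 with KLA, the second of them below background on all 4 channels. Of the partners Il12a rose by 0.18 and Il23a was not called. Tnf measured 11.92 and 12.04 in the DMSO channels and 13.93 and 13.98 in the KLA channels, a difference of 1.97, which was no longer called with arrays as samples (1.82). Il10, the anti-inflammatory cytokine, rose by 2.93, Tnfsf10 (TRAIL) by 4.64, and Csf3 was at least 7.61-fold higher. Ifnb1, interferon-β, measured 6.10 and 6.18 in the DMSO channels and 10.53 and 10.39 in the KLA channels and was well above background in 1 of the 2 DMSO channels.

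Chemokine genes rose in 17 of 23 and fell in 2, with a median of 1.97. Those for T cells through Cxcr3 (Cxcl9, Cxcl10, Cxcl11) and Ccl5 led the list. Cxcl10 measured 9.69 and 9.35 in the DMSO channels and 16.14 and 16.17 in the KLA channels. Ccl2, which draws monocytes, measured 14.15 and 13.96 in the DMSO channels and 17.20 and 17.22 in the KLA channels. The neutrophil chemokines Cxcl1 and Cxcl2 rose by 1.97 and 2.38. Ccl6 fell by 0.44, from 14.00 and 14.03 to 13.57 and 13.59, and Cxcl12, a chemokine of marrow stroma, fell by 0.21. No chemokine gene was called lower with processed signals or with arrays as samples, and 4 were when arrays were not normalized to each other. Ccl22, not well above background on any of the 4 channels, and Cx3cl1, with a difference of -0.16, were not called.

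**Figure D2:**
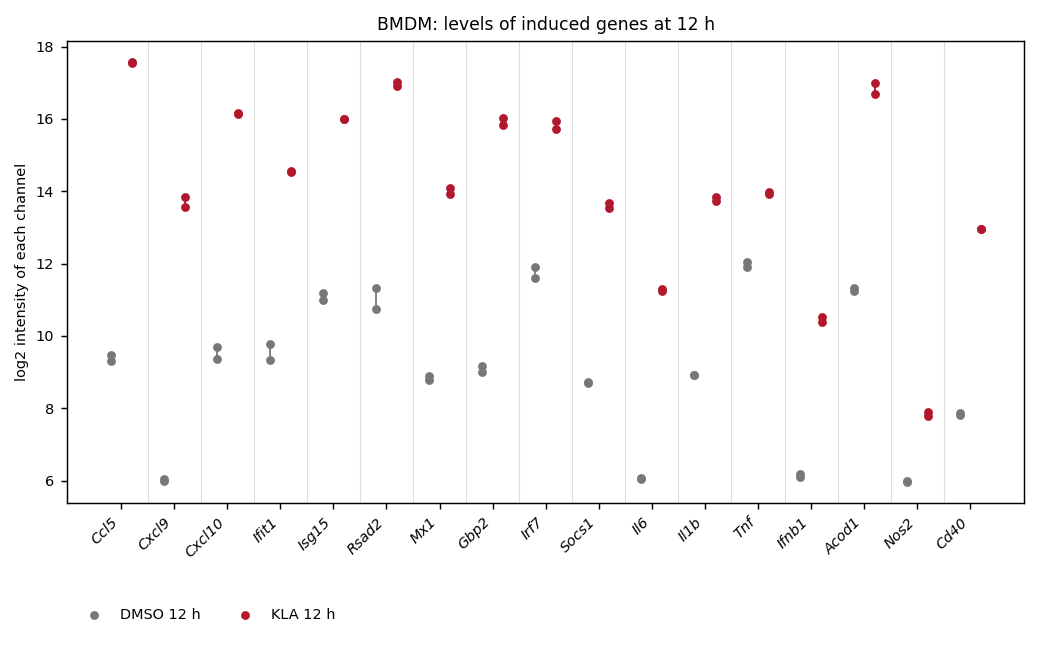
Log2 intensity (y axis) of induced genes (x axis) in the DMSO 12 h (grey) and KLA 12 h (red) channels of BMDM, 2 points per treatment joined by a line. In every gene shown both KLA channels lie above both DMSO channels; Ccl5, for example, went from 9.31 and 9.48 to 17.54 and 17.58.

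On the receptor side, 15 of 21 genes of Toll-like receptors and their adaptors rose and 3 fell. Tlr3, the receptor for double-stranded RNA, rose most, from 6.85 and 6.81 to 10.11 and 10.10. The adaptor Myd88 went from 12.63 and 12.56 to 14.24 and 14.24, and the co-receptor Cd14 from 13.86 and 14.09 to 15.09 and 15.23. Tlr4 itself overlapped between treatments, at 9.94 and 9.91 in the DMSO channels and 10.00 and 9.91 in the KLA channels, and its difference of 0.03 was not called, turning to -0.29 when arrays were not normalized to each other. Its partner Ly96 (MD-2) rose by 0.78. Tlr2, which senses bacterial lipopeptides, fell by 0.49, from 12.88 and 12.87 to 12.40 and 12.38, although it was 14.94 and 14.90 after 1 h of KLA against 12.39 and 12.50 with DMSO at 1 h. Irak1, the kinase below MyD88, fell by 0.73, and Irak3, which restrains that kinase step, rose by 1.15.

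Of 14 NF-κB subunits and inhibitors, 13 rose, with a median of 1.22. The largest difference was that of the inhibitor Tnfaip3 (A20), a ubiquitin-editing enzyme, at 10.60 and 10.62 in the DMSO channels and 12.90 and 12.84 in the KLA channels. Nfkbie and Nfkbia, 2 inhibitor proteins that hold NF-κB in the cytoplasm, rose by 2.13 and 1.39. Among subunits Nfkb2 rose by 1.26, Nfkb1 by 1.07 and Relb by 0.65, while Rela overlapped between treatments at 12.16 and 12.47 in the DMSO channels and 12.39 and 12.62 in the KLA channels and was not called. Of 15 inhibitors of other signalling steps and of mRNA stability, 9 rose and 4 fell: Dusp2, a phosphatase of MAP kinases, rose by 2.63, Zfp36 (tristetraprolin), which promotes decay of cytokine mRNAs, rose by 1.91, and Zfp36l1 and Dusp6 fell by 1.43 and 0.80.

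Interferon signalling genes were higher in 15 of 20 and lower in 4. Irf7, the factor that amplifies interferon production, measured 11.61 and 11.92 in the DMSO channels and 15.72 and 15.96 in the KLA channels. Stat2, which carries the interferon signal to the nucleus, went from 11.70 and 11.78 to 14.37 and 14.54, and Irf9, its partner, rose by 0.76. Socs1, an inhibitor of JAK kinases, had the largest difference of the list, going from 8.72 and 8.69 to 13.55 and 13.69, and Socs3 rose by 4.09. Ifngr1, a chain of the interferon-γ receptor, fell by 1.68, from 13.92 and 14.27 to 12.37 and 12.47. Irf3 and Irf8 fell by 0.62 and 0.39 on their brightest probes, while their other probes differed by -0.24 and 0.09.

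All 38 interferon-stimulated genes tested rose, 36 of them over 2-fold, with a median of 2.64. With arrays as samples 31 of the 38 were called higher and 0 lower, and with probes averaged 37 were higher and 1 lower. Rsad2 (viperin), an antiviral enzyme, measured 11.33 and 10.73 in the DMSO channels and 17.02 and 16.90 in the KLA channels. Isg15, a ubiquitin-like protein, rose by 4.91 ± 0.11 (SE; limma's adjusted p = 2.92e-17), and its protease Usp18 rose by 4.67. Mx1, an antiviral GTPase, measured 8.90 and 8.79 in the DMSO channels and 13.93 and 14.08 in the KLA channels. In all of these the 2 treatments lay apart. On the brightest probes the smallest rises were those of Ifi27 (0.44, with another probe at -1.81), Trim25 (0.76, with another probe at 2.71) and Bst2 (1.15). The 13 interferon-inducible GTPases, which act on the vacuoles of intracellular microbes, also all rose, from a difference of 2.71 for Irgm2 to 6.84 for Gbp2. Gbp2 measured 9.17 and 9.01 in the DMSO channels and 15.84 and 16.02 in the KLA channels. Iigp1, an immunity-related GTPase, measured 9.82 and 9.64 in the DMSO channels and 14.87 and 14.89 in the KLA channels, and Igtp measured 12.57 and 12.40 in the DMSO channels and 16.10 and 15.99 in the KLA channels.

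RefSeq promoter windows (250 bases before to 50 after a start, GRCm38.p6) were at hand for 476 of the 630 list members tested. The interferon-stimulated response element (ISRE), bound by STAT2 and IRF proteins and searched here as GAAANNGAA on both strands, lay in 18 of 27 windows of interferon-stimulated genes (66.7%) and in 8 of 8 of the GTPases, against 9.76% of the windows of all 27025 genes in the table. The NF-κB consensus, also searched on both strands, lay in 8 of 11 windows of NF-κB subunits and inhibitors (72.7%), 5 of 15 of chemokines (33.3%) and 4 of 14 of cytokines (28.6%), against 5.14% of all. Other lists held these letters too. NF-κB matches lay in 2 of 7 windows of MHC class II (28.6%) and 3 of 14 of MHC class I (21.4%), but in 0 of 21 of glycolysis. ISRE matches lay in 28.6% of MHC class I and 26.7% of chemokines, but in 0 of 16 of cycle inhibitors. These are matches of letters and not measured sites. The windows below, 220 bases before each start, belong to induced genes of these lists and show how the matches are placed. Capitals mark matches to ISRE, NF-κB, CCAAT or TTTGAA, the letters of the cell cycle homology region (CHR).
Isg15, chr4:156200819-156201038, minus strand: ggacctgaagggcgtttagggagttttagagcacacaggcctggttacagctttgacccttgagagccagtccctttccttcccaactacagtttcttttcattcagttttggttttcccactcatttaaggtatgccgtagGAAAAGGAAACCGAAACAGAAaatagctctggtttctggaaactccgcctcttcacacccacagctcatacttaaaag
Ifit1, chr19:34640669-34640888, plus strand: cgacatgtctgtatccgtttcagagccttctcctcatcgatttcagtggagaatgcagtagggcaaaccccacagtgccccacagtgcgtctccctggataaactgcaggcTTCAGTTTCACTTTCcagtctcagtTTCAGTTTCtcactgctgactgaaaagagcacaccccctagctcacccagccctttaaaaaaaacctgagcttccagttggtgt
Gbp2, chr3:142620443-142620662, plus strand: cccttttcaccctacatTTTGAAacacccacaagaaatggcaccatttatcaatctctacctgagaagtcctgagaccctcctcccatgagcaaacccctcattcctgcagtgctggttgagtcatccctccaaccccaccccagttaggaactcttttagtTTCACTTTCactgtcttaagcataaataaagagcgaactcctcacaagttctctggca
Cxcl10, chr5:92348890-92349109, minus strand: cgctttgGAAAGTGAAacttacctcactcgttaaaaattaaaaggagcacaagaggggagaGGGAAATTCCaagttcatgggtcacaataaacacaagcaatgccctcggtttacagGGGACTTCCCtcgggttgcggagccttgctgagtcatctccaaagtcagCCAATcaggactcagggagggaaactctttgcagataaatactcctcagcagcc
Isg15 and Ifit1 each hold 3 ISRE matches within 109 bases of the start, some of them overlapping. Gbp2 holds 1, at 58 bases. Cxcl10 holds 1 ISRE match and 2 NF-κB matches. In the data, the genes of these windows rose by 4.91, 4.99, 6.84 and 6.64.

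In the list for antigen presentation by MHC class I, 14 of 16 genes rose and none fell. The peptide transporter Tap1 measured 10.60 and 10.56 in the DMSO channels and 12.82 and 12.87 in the KLA channels, and the immunoproteasome subunits Psmb9 and Psmb10 rose by 1.75 and 2.20. The heavy chain H2-K1 and B2m, its partner, rose by 0.20 and 0.32. For MHC class II, 6 of 10 rose and 1 fell, with a median of 0.41, but with arrays as samples 2 rose and 1 fell. Cd74, the invariant chain, measured 8.28 and 8.24 in the DMSO channels and 9.80 and 9.86 in the KLA channels, and H2-Ab1 measured 7.98 and 7.87 in the DMSO channels and 9.22 and 9.24 in the KLA channels. Ciita, the activator of class II genes, was not called, at 6.18 and 6.22 in the DMSO channels and 6.32 and 6.33 in the KLA channels. Past 2-fold stood 3 of the 10 class II genes and 10 of the 16 class I genes. Ifi30, a lysosomal reductase for antigens, fell by 0.82.

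Of 12 costimulatory genes, 9 rose and 1 fell. Cd40, a receptor for help from T cells, measured 7.86 and 7.81 in the DMSO channels and 12.97 and 12.95 in the KLA channels. Cd274 (PD-L1), a ligand that inhibits T cells, measured 10.59 and 10.29 in the DMSO channels and 15.06 and 14.76 in the KLA channels. Cd86 rose by 3.62, whereas Cd80, which binds the same T cell receptors as Cd86, overlapped between treatments at 7.67 and 7.60 in the DMSO channels and 7.85 and 7.65 in the KLA channels and was not called. Its difference of 0.12 was 0.22 and called without the second KLA channel, and -0.17 when arrays were not normalized to each other. Cd83, a marker of mature dendritic cells, fell by 0.16 at 12 h, a call lost with an offset of 16, with BMDM arrays alone, with arrays as samples, when centred on the median of all genes, and without either DMSO channel or the first KLA channel. At 1 h it was higher, by 2.78.

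Effector genes rose in 21 of 27. Acod1, which makes itaconate, measured 11.34 and 11.24 in the DMSO channels and 16.69 and 17.00 in the KLA channels. Lcn2, lipocalin 2, which binds bacterial siderophores, measured 6.49 and 6.33 in the DMSO channels and 11.43 and 11.38 in the KLA channels. Ptges and Ptgs2, the enzymes that make prostaglandin E2, rose by 4.66 and 3.28. Nos2, inducible nitric oxide synthase, measured 7.77 and 7.91 with KLA and was at least 3.50-fold over DMSO channels that were not well above background. Genes for its substrate and cofactor rose too: Gch1, for its cofactor, by 3.38, Ass1, for arginine, by 3.19, and the arginine transporter Slc7a2 was at least 4.76-fold higher. Arg1, which competes for arginine, was at least 4.82-fold higher, and Arg2 rose by 1.43. Hmox1, heme oxygenase, fell by 0.62, and the scavenger receptor Marco overlapped at 16.50 and 16.40 in the DMSO channels and 16.25 and 16.71 in the KLA channels (not called, but 0.41 and called when arrays were not normalized to each other, and 0.64 and called in the authors' values).

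Complement and cell death genes moved in both directions, but more rose than fell in each list, with medians of 0.44 and 0.80. Of all genes, 28.7% rose and 36.4% fell. In the complement list 7 of 13 rose and 4 fell: factor B (Cfb) measured 9.83 and 9.72 in the DMSO channels and 15.26 and 15.24 in the KLA channels, and C3 measured 13.47 and 13.47 in the DMSO channels and 16.88 and 16.96 in the KLA channels. C1qc fell by 0.54, a call lost in the processed signals (-0.45), with arrays as samples (-0.53) and in the authors' values (-0.01). In the death list 16 of 26 rose and 4 fell. Mlkl, the executioner of necroptosis, measured 10.77 and 10.65 in the DMSO channels and 13.52 and 13.47 in the KLA channels, and the inflammatory caspases Casp4 and Casp1 rose by 2.38 and 1.82. Genes that restrain death rose as well, Cflar by 2.47 and Birc3 by 2.15. Bcl2l11 (Bim), which promotes apoptosis, fell by 1.31 on its brightest probe, but its 3 probes ranged from -1.31 to 1.10.

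Genes of proliferation fell almost throughout. Of 165 tested genes in the lists for cyclins and their kinases, DNA replication, mitosis and DNA repair, 157 fell and 6 rose, with a median difference of -1.72, or 3.29-fold lower. Of these, 135 fell over 2-fold. They made up 8.66% of the 1559 genes that fell over 2-fold and 34 of the 100 largest decreases, and the 115 tested genes of the cytokine, chemokine, interferon signalling, interferon-stimulated and GTPase lists made up 8.16% of the 1079 that rose over 2-fold and 38 of the 100 largest increases. The count of genes that fell was 155 to 157 with any 1 of the 4 channels left out and 140 with arrays as samples.

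Cyclins and cell cycle kinases fell in 25 of 28. Cdk1, the kinase of mitosis, measured 11.88 and 11.81 in the DMSO channels and 9.60 and 9.61 in the KLA channels on its brightest probe, and its other probe differed by -0.18. Ccnb1, a cyclin that activates it, measured 10.02 and 10.07 in the DMSO channels and 7.71 and 7.96 in the KLA channels, and Ccnb2, another, fell from 12.59 and 12.59 to 10.15 and 10.21. Ccne1, the cyclin of entry into S phase, fell from 13.17 and 13.04 to 11.29 and 11.25. Transcription factors of the cycle fell as well: E2f1 by 1.11, E2f2 by 2.86, Mybl2 (B-Myb) by 1.65 and Foxm1 by 1.99. E2f7, a repressor of the same family, fell by 2.96, its probes ranging from -2.96 to -0.32. The D cyclins, which couple growth factors to the cycle, went different ways. Ccnd1 fell by 0.65, from 13.04 and 13.04 to 12.40 and 12.39, whereas Ccnd2 rose from 10.80 and 11.02 to 12.78 and 12.89 and Ccnd3 from 11.25 and 11.22 to 11.81 and 11.87. Myc, a growth-promoting factor, overlapped at 9.15 and 9.18 in the DMSO channels and 9.23 and 9.17 in the KLA channels and was not called (0.03), although it was 0.29 lower and called when arrays were not normalized to each other (-0.29).

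DNA replication genes fell in 51 of 53, with a median of -1.60. The subunits of the MCM helicase that opens DNA, Mcm2, Mcm3 and Mcm5, fell by 1.82, 1.72 and 1.78. Mcm5 measured 13.29 and 13.30 in the DMSO channels and 11.53 and 11.49 in the KLA channels. Among enzymes of nucleotide supply, Rrm2, the S phase subunit of ribonucleotide reductase, measured 10.90 and 10.76 in the DMSO channels and 7.74 and 7.61 in the KLA channels, Dut, which removes dUTP, fell by 3.12, and Tyms, thymidylate synthase, fell by 2.14 on its brightest of 3 probes, which ranged from -2.22 to 0.03. Pole and Prim1, a polymerase and the primase, fell by 2.86 and 2.40. Pcna, the sliding clamp, went from 15.28 and 15.22 to 13.98 and 13.79. Smaller falls were those of the licensing factor Cdt1, by 0.39, and Mcm10, by 0.64, neither of them called in the authors' values (-0.02 and -0.32). Pold3, a polymerase subunit, rose by 0.52 with probes from -0.30 to 0.65, and Rfc3 was not called.

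Mitosis genes fell in 60 of 62, and 58 of these fell over 2-fold, with a median of -2.07, the lowest of the 26 lists. Plk1, a mitotic kinase, measured 11.97 and 11.83 in the DMSO channels and 8.96 and 8.85 in the KLA channels. Cdc20, which activates the complex that ends mitosis, had a difference of -3.03 ± 0.08 (SE; limma's adjusted p = 3.97e-16). Mki67, the gene of the Ki-67 antigen that marks cycling cells, measured 12.71 and 12.84 in the DMSO channels and 10.38 and 10.32 in the KLA channels. In these 3 genes the KLA channels lay more than 2 log2 units below the DMSO channels. Top2a, which untangles chromosomes, measured 10.36 and 10.49 in the DMSO channels and 8.14 and 8.30 in the KLA channels. Birc5 and Aurkb, of the chromosomal passenger complex, fell by 2.74 and 2.44, and Bub1 and Bub1b, of the spindle checkpoint, by 2.07 and 2.70. Against them, Pttg1 (securin), the inhibitor of separase, rose from 12.51 and 12.46 to 14.64 and 14.51, and Tpx2, a spindle factor, rose from 11.17 and 11.02 to 11.99 and 12.03.

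DNA repair genes fell in 21 of 22, the median being -1.66. Brca1 and Brca2 fell by 1.61 and 2.18 on their brightest probes, while their other probes differed by -0.69 and -0.44. Fanca rose by 0.38. Genes that inhibit the cycle moved in both directions: 5 of 21 rose, 7 fell and 9 were not called, shares no higher than those of all genes (28.7% and 36.4%), with a median of -0.06 that turned to 0.08 in the authors' values. Cdkn1a (p21) measured 12.99 and 13.06 in the DMSO channels and 13.16 and 13.26 in the KLA channels and was not called, although its difference of 0.19 was 0.31 and called when arrays were not normalized to each other. Cdkn2c (p18), an inhibitor of Cdk4 and Cdk6, fell from 10.65 and 10.66 to 8.01 and 7.95. Gadd45b, a stress gene that NF-κB induces, rose by 1.92.

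**Figure D3:**
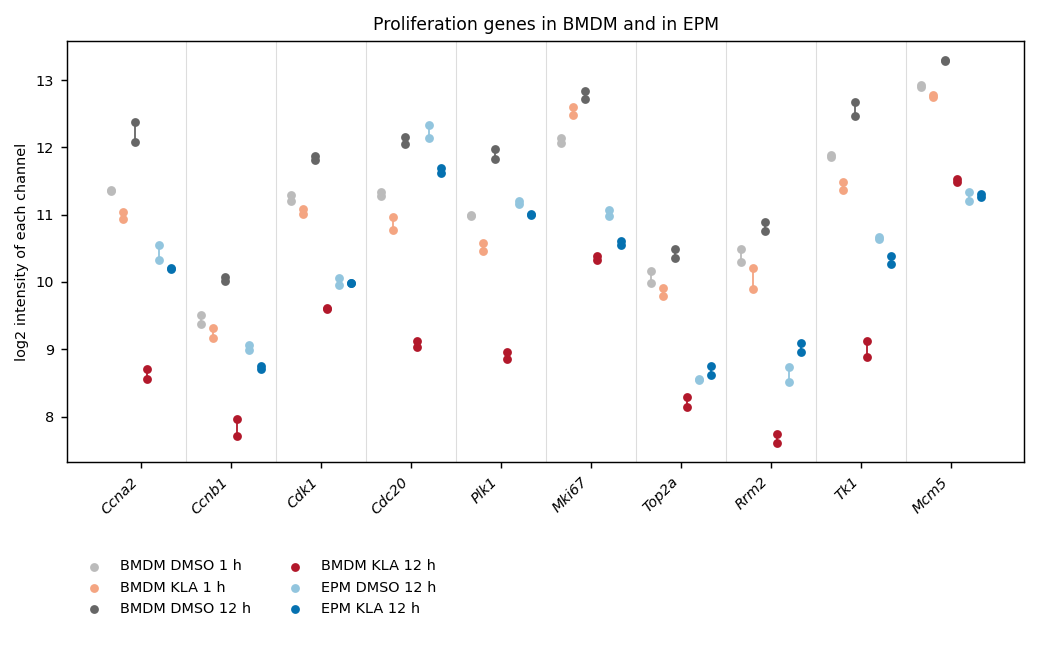
Log2 intensity (y axis) of proliferation genes (x axis) in single channels, 2 points per condition joined by a line, for BMDM at 1 h and 12 h and EPM at 12 h with DMSO or KLA. In every gene shown the BMDM KLA 12 h channels (dark red) lie under all other BMDM channels, and Mki67 stood at 10.38 and 10.32 there against 12.71 and 12.84 with DMSO.

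In the promoter windows of the fallen lists, the CHR letters TTTGAA, bound by MuvB complexes, lay in 39 of 54 windows of mitosis genes (72.2%), against 20.9% of replication genes and 20.2% of all genes. The E2F sequence TTTNNCGC lay in 18 of 43 windows of replication genes (41.9%) and in 38.1% of cyclin and kinase genes, against 5.93% of all. E2F matches also lay in 35.7% of repair genes and 20.4% of mitosis genes. Outside the fallen cycle lists they lay in 4 of 12 windows of genes of the oxysterol receptor LXR (33.3%) and in 21.4% of MHC class I. Chemokines, GTPases and sterol synthesis were among the lists with 0. CCAAT, the letters bound by NF-Y, lay in 66.7% of mitosis, 62.8% of replication and 71.4% of repair genes, against 41.1% of all. It was not particular to these lists. Its share ran from 13.3% in chemokines to 94.1% in sterol synthesis, with 71.4% in MHC class II, 68.8% in cycle inhibitors and 64.3% in MHC class I. The CHR letters also lay in 4 of 8 windows of the induced GTPases and 40.9% of death genes, but in 7.14% of repair genes. Each sequence was searched on both strands, and E2F matches may overlap each other. The windows of 5 genes at the centre of these lists, 220 bases before each start, show the CHR, E2F and CCAAT matches in capitals.
Cdc20, chr4:118437344-118437563, minus strand: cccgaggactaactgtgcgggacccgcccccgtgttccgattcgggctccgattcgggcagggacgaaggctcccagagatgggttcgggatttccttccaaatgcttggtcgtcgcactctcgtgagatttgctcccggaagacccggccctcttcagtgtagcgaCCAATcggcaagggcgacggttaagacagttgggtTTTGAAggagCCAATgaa
Ccnb2, chr9:70421555-70421774, minus strand: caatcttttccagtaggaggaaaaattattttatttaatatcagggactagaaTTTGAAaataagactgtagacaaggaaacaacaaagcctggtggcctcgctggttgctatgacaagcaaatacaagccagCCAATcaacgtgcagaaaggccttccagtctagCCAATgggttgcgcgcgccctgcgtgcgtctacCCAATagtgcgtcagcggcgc
Cdk1, chr10:69352913-69353132, minus strand: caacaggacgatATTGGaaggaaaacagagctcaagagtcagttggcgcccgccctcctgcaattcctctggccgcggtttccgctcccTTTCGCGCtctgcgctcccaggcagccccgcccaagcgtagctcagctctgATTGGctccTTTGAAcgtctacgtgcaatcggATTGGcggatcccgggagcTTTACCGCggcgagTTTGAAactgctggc
Top2a, chr11:99024190-99024409, minus strand: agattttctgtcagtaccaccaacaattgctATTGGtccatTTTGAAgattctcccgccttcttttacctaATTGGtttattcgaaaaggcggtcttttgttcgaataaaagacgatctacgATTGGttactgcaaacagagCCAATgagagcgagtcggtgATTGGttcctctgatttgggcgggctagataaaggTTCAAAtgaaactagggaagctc
Mcm5, chr8:75109289-75109508, plus strand: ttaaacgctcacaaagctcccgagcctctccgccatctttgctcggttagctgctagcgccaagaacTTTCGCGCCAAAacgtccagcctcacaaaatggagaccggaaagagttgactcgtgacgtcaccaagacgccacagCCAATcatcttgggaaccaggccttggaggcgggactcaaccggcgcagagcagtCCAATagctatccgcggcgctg
The first 4 windows all hold TTTGAA, and Cdk1 also holds 2 E2F matches. Mcm5 holds 2 overlapping E2F matches and no TTTGAA in these 220 bases. All 5 hold CCAAT, which reads ATTGG on the other strand.

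The fall was seen at 12 h and was small at 1 h. At 1 h, 69 of the 165 proliferation genes were lower with KLA against 17.6% of all genes tested, with a median of -0.21, and none fell over 2-fold. Tested directly, the response was more negative at 12 h than at 1 h in 153 of the 165 (30.0% of all genes). Ccna2, as an example, measured 11.37 and 11.35 with DMSO and 11.04 and 10.94 with KLA at 1 h, a difference of -0.37, and the 12 h response was lower by 3.22 (limma's adjusted p = 3.74e-13). Mki67 was 0.43 higher at 1 h, from 12.06 and 12.14 to 12.59 and 12.48, before its fall at 12 h. DMSO levels themselves were not constant: 132 of the 165 were higher with DMSO at 12 h than with DMSO at 1 h (13.3% of all genes) and 3 were lower (10.0%), with a median of 0.45, and this comparison shares the DMSO 12 h channels with the main one. Ccna2 stood at 11.37 and 11.35 with DMSO at 1 h and at 12.37 and 12.08 with DMSO at 12 h.

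In EPM, which came from the peritoneum rather than from marrow cultures, the proliferation genes were called at shares near those of all genes. At 12 h, 54 of the 165 were lower (34.4% of all genes) and 31 were higher (19.6%), with a median of -0.09 against -0.06 over all genes. The difference itself was tested, and the response was more negative in BMDM than in EPM in 154 genes (23.3% of all genes). BMDM and EPM were hybridised on different slides, and the slide cannot be told apart from the type of macrophage. The level with DMSO also differed, by a median of 1.30 in favour of BMDM over the 165 genes against 0.02 over all genes, and with KLA the median was -0.38. Cdk1, for instance, stood at 10.06 and 9.96 in EPM with DMSO and 9.99 and 9.99 with KLA, under its BMDM DMSO level and above its BMDM KLA level. Rrm2 stood at 8.73 and 8.52 with DMSO and 9.10 and 8.95 with KLA in EPM, higher with KLA. In EPM Cdc20 measured 12.33 and 12.14 with DMSO and 11.70 and 11.62 with KLA, a difference of -0.58 against -3.03 in BMDM.

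**Figure D4:**
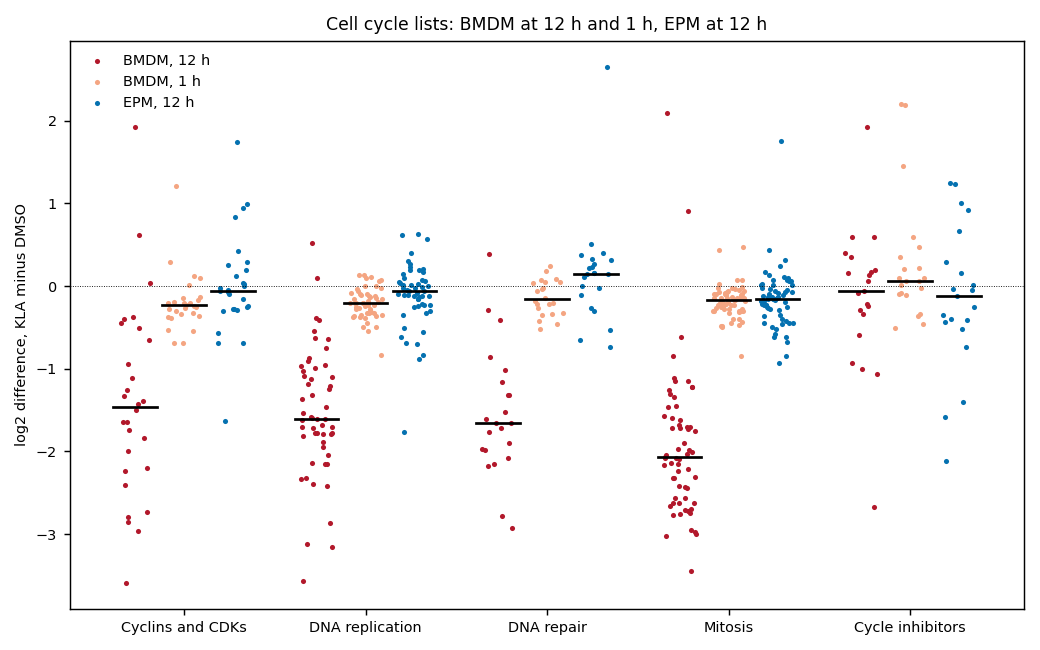
Log2 difference between KLA and DMSO (y axis) for the genes of 5 cell cycle lists (x axis) in BMDM at 12 h (red), BMDM at 1 h (orange) and EPM at 12 h (blue); each point is a gene and the bar is the median. For mitosis genes the medians were -2.07, -0.17 and -0.15, and the medians for cycle inhibitors lay between -0.12 and 0.07.

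Metabolic genes divided by pathway. In the glycolysis list 9 of 21 rose and 9 fell, against 28.7% and 36.4% of all genes. Its median of 0.02 turned in sign in the processed signals, without normalization between arrays and with probes averaged. Pfkfb3, which makes an activator of glycolysis, rose from 11.84 and 11.98 to 14.24 and 14.34, Hif1a rose by 1.14 and the hexokinases Hk3 and Hk2 by 1.32 and 0.74. Pfkm and Pdk1 fell by 1.29 and 1.42. Gpi1 fell by 1.19 on its brightest probe and its other probe differed by 0.30. In contrast, 29 of 31 genes of the citric acid cycle and respiratory chain fell and none rose, most by little, with a median of -0.47 (-0.16 in the authors' values). With arrays as samples 15 fell, and in the authors' values 13 fell and 2 rose. The isocitrate dehydrogenase Idh2 measured 10.74 and 10.88 in the DMSO channels and 8.52 and 8.53 in the KLA channels, and Fh1, fumarase, measured 11.85 and 11.84 in the DMSO channels and 10.28 and 10.35 in the KLA channels. Respiratory chain subunits moved less, Ndufs1 falling by 0.80 and Atp5o by 0.16. Sdhb fell by 0.18, a call lost without the first DMSO channel (-0.11) or the second KLA channel (-0.12), and the difference was 0.14 in the authors' values.

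Sterol synthesis fell in 20 of 25 genes and rose in none, with a median of -0.85. Sqle, squalene epoxidase, measured 10.74 and 10.54 in the DMSO channels and 8.55 and 8.18 in the KLA channels, and the sterol carrier Stard4 fell from 10.12 and 9.90 to 7.87 and 7.65 on its brightest probe of 3, which ranged from -2.25 to -0.65. Srebf2, the factor that activates these genes, fell by 1.62 on its brightest probe, its 4 probes ranging from -1.62 to -0.12. Of 17 genes of the oxysterol receptor LXR, 3 rose and 8 fell, against 28.7% and 36.4% of all genes. Their median of -0.18 was 0.01 in the authors' values. Nr1h3, LXRα, rose from 11.72 and 11.57 to 13.54 and 13.43, and the efflux pump Abcg1 rose by 0.93, while Abca1 was not called. The fatty acid desaturase Scd2 fell from 11.80 and 11.70 to 8.76 and 8.64, alongside Fasn.

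Surface receptors of macrophages moved in both directions: 10 of 30 rose and 17 fell, against 28.7% and 36.4% of all genes. Clec4e (Mincle), a receptor for mycobacterial glycolipid, measured 10.01 and 9.78 in the DMSO channels and 15.22 and 15.05 in the KLA channels. Of the receptors for antibody, Fcgr2b rose by 3.60, Fcgr4 by 3.23 and Fcgr1 by 2.13. Mrc1, the mannose receptor, measured 12.59 and 12.35 in the DMSO channels and 9.65 and 9.36 in the KLA channels. Itgb5, an integrin of apoptotic cell uptake, and Gas6, which bridges apoptotic cells to the receptors Axl and Mertk, fell by 2.61 and 2.59. Csf1r fell from 15.20 and 15.22 to 13.95 and 13.94, and Cx3cr1 and Trem2 fell by 1.72 and 1.60. Adgre1 (F4/80) fell by 0.33 on its brightest probe, with its other probe differing by 0.27, a call lost without the second KLA channel (-0.20) and reversed when arrays were not normalized to each other (0.10) and in the authors' values (0.32).

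Transcription factors of macrophages were split, 10 of 27 rising and 11 falling, near the shares of all genes (28.7% and 36.4%), with a median of -0.14 that turned positive with probes averaged (0.11) and in the authors' values (0.17). The count that fell was 4 with arrays as samples and 6 of 22 in the authors' values. Spic rose from 10.35 and 10.27 to 13.02 and 13.01 and Cebpb by 1.26. Cebpa, of the same family as Cebpb, fell from 10.61 and 10.92 to 7.66 and 7.78. Pparg, a lipid-sensing receptor, and its partner Rxra fell by 1.38 and 1.44, the other probe of Rxra differing by -0.17. Lysosome genes rose in 6 of 24 and fell in 12, against 28.7% and 36.4% of all genes. Their median of -0.32 was 0.11 in the authors' values, where 9 of 23 were higher and 6 lower. Ctsc, a protease that activates granule enzymes, rose by 1.91, whereas the acid lipase Lipa, Gusb and Man2b1 fell by 1.64, 1.64 and 1.77. Ctsb, Ctsd and Ctsl fell by 0.47, 0.46 and 0.49, with positive signs in the authors' values (0.11, 0.10 and 0.16). Without 1 of the channels the call was lost for Ctsd (-0.26 or -0.38) and Ctsl (-0.35 or -0.30).

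The rise of inflammatory genes had different timing by class. All 38 interferon-stimulated genes and all 13 GTPases had a larger response at 12 h than at 1 h, against 24.6% of all genes, and at 1 h 15 of the 38 were higher, against 11.0% of all. DMSO levels of the 38 were not constant. With DMSO, 21 were lower at 12 h than at 1 h (10.0% of all genes) and 2 were higher (13.3%), with a median of -0.41. The part of this in the larger 12 h response was not tested. Gbp4 measured 6.41 and 6.26 with DMSO and 6.40 and 6.26 with KLA at 1 h and 6.28 and 6.14 in the DMSO channels and 12.58 and 12.58 in the KLA channels at 12 h, so its rise was seen at 12 h alone among these times. Isg20 went from 9.19 and 9.20 to 9.44 and 9.54 at 1 h and had a response larger by 6.33 at 12 h (limma's adjusted p = 4.50e-19). Ifnb1 went the other way: it measured 6.23 and 6.12 with DMSO and 15.44 and 15.23 with KLA at 1 h, and neither DMSO channel at 1 h was well above background, so that it was at least 575-fold higher at 1 h. At 12 h its difference was 4.32, or 20.0-fold.

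Other genes had a larger response at 1 h. Cxcl1 stood at 7.23 and 7.29 with DMSO and 14.30 and 13.96 with KLA at 1 h. Its difference of 6.87 at 1 h was 1.97 at 12 h. Tnfsf9 (4-1BB ligand) and Ppp1r15a (Gadd34), which restores protein synthesis after stress, had differences of 4.80 and 5.08 at 1 h and 0.64 and 0.78 at 12 h. The zinc finger factor Egr2 changed sign, from 4.15 at 1 h to -0.56 at 12 h, with channels at 8.22 and 8.19 under 8.80 and 8.73. NF-κB inhibitors lay between: Tnfaip3 differed by 4.40 at 1 h and 2.26 at 12 h. Of the 14 NF-κB genes, 8 had a smaller response at 12 h, against 30.0% of all genes. Il1b was still high at 12 h, at a difference of 4.88 against 5.83 at 1 h. Il6, with DMSO channels not well above background at either time, was at least 36.4-fold higher at 12 h and at least 67.2-fold higher at 1 h. Cytokines as a list were divided, 9 of 21 with a larger and 9 with a smaller response at 12 h, against 24.6% and 30.0% of all genes.

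**Figure D5:**
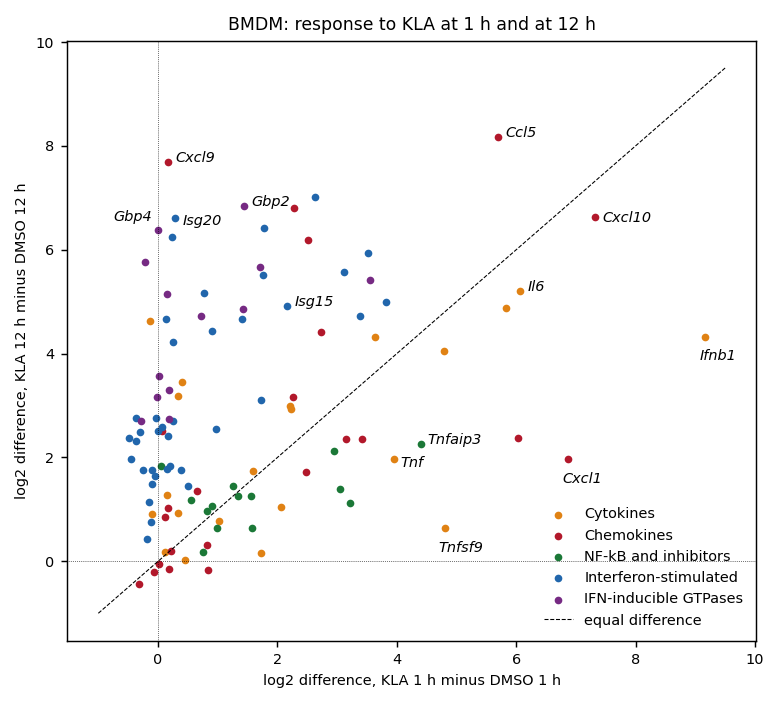
Log2 difference between KLA and DMSO in BMDM at 1 h (x axis) and at 12 h (y axis) for genes of 5 inflammatory lists, each point a gene (mean of 2 channels per condition) and the dashed line equal differences. Interferon-stimulated genes and GTPases lie above the line, and Ifnb1, Cxcl1 (6.87 and 1.97) and Tnfsf9 lie under it; points of genes not well above background with DMSO, such as Ifnb1, Il6 and Cxcl9, are fitted values and not exact differences.

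Beside the proliferation genes, the 12 h response of BMDM differed from that of EPM in size for many genes, with 24.7% of all genes more positive in BMDM. Interferon-stimulated genes had a smaller log2 difference in BMDM in 35 of 38, against 23.3% of all genes. Ifit3 stood at 7.50 and 7.54 with DMSO in EPM and 12.02 and 11.78 in BMDM, and with KLA at 16.46 and 16.26 in EPM and 16.64 and 16.47 in BMDM, so the 2 cell types lay further apart with DMSO than with KLA. Fpr1, the formyl peptide receptor, stood at 6.58 and 6.61 with DMSO in EPM against 14.08 and 14.12 in BMDM, with a difference of 6.52 in EPM and 1.31 in BMDM. Tlr2 rose by 4.41 in EPM and fell by 0.49 in BMDM (limma's adjusted p = 2.65e-18 for the difference). Slco4a1, an organic anion transporter, rose by 3.54 in EPM and fell by 0.89 in BMDM. Tmem178 rose by 5.10 in EPM and 0.99 in BMDM.

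In the other direction, Shisa3 measured 6.64 and 6.58 in the DMSO channels and 11.74 and 11.47 in the KLA channels in BMDM, a difference of 5.00. In EPM its DMSO channels were not well above background, at 5.96 and 5.96, and it was at least 1.95-fold higher with KLA. Serpina3g differed by 7.03 in BMDM and 3.56 in EPM, from a DMSO level of 10.16 and 10.09 in EPM. Gstt4, a glutathione transferase, was at least 16.2-fold higher in BMDM, at 10.07 and 9.95 with KLA, and stood at 6.81 and 6.80 with KLA in EPM, where DMSO was not well above background either. Kcnab1, a potassium channel subunit, rose by 3.11 in BMDM on its brightest probe (its other probe differed by 0.27) and was not called in EPM (-0.18). Bex1 was not above background in any BMDM 12 h channel and fell by 3.36 in EPM. Ifnb1 stood at 10.53 and 10.39 with KLA in BMDM and at 7.47 and 7.21 in EPM at 12 h, and in EPM neither DMSO channel was well above background. Sterol synthesis genes fell in both, in 20 of 25 in BMDM and 21 of 25 in EPM. Of the 25, 16 did not pass the test of a difference between the cell types, nor did 8933 of all 17178 genes.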

How the data were processed

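RNA of each sample was labelled with Cy5 or Cy3 and hybridised to Agilent mouse arrays, scanned and read with Feature Extraction 9.5.3.1, as the submitters' processing notes give it. The deposited scanner files hold mean and local background intensity per spot and channel, not normalized, on the mm8 grid. The authors also deposited a table of normalized linear intensity, with the method not given in the sources used here; its columns correlated with their own channels at r of 0.988 to 0.995 over 12309 probes. The processed signal intensity in the deposited scanner files served as an alternative.

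Spots were background corrected (normexp, offset 50), control and outlier spots left out, and channels normalized by loess within and Aquantile between arrays in limma 3.58.1 (R 4.3.3). Spots of a probe were averaged, and a gene was represented by the probe with the highest mean. Of 41174 probes, 23374 were named by RefSeq accession, 6724 by symbol, 2908 by a unique synonym and 164 by gene ID, 1681 kept the name in the file and 6323 had none, giving 21316 symbols. A gene was kept if in 1 or more of 12 conditions its probe was well above background on both channels. The fit had 1 coefficient for each of 12 conditions over 24 channels (12 residual degrees of freedom). P-values were adjusted by Benjamini-Hochberg over every gene in the test, with 0.05 as the threshold. For genes not well above background in DMSO, bounds were set against the lowest signal well above background. The number of arrays limits the precision.

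Members and lists were chosen with earlier results of these data known. Genes named are among genes past the threshold, the 10 that rose and 10 that fell most with the treatments' channels apart and the brighter condition above background, key members and the 3 largest and 3 smallest differences of each list, and the 5 largest in each direction for each difference of responses. Cell type markers are named apart from this rule, and some list members that count in the totals are not reported here by name. The 2 channels of an array share its dyes: Cy5 minus Cy3 correlated between all pairs of the 4 BMDM arrays (r of 0.443 to 0.629), so dye was tried as a replicate block. Other alternatives were an offset of 16, processed signals, no normalization between arrays, arrays of 1 cell type alone, no filter, the mean of probes, arrays as samples, the authors' values, centring on the median and leaving out each channel. Figures were drawn with matplotlib 3.10.9 in Python 3.11.15.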

Additional observations from a re-analysis of the deposited data

Results flagged for a closer look

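The response to KLA differed between 12 h and 1 h in BMDM by limma's test of the difference for 4221 genes with a larger and 5152 with a smaller log2 response at 12 h. In the first direction Ifit1bl1 (8.47), Cxcl9 (7.52), Serpina3g (7.06), Gbp4 (6.38) and Isg20 (6.33) differed most on the log2 scale. In the second direction these were Cxcl1 (-4.90), Ifnb1 (-4.85), Egr2 (-4.72), Ppp1r15a (-4.30) and Tnfsf9 (-4.17). The values of Cxcl9 and Ifnb1 are fitted ones and no exact differences, since neither DMSO channel at 1 h was well above background for these genes, and the same holds for Cxcl9 at 12 h.

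The 12 h response differed between BMDM and EPM, which lay on different slides, for 4244 genes with a larger and 4001 with a smaller log2 response in BMDM. These counts were 218 and 214 with arrays as samples, and 2127 and 6996 without normalization between arrays. The largest positive differences of responses were those of Shisa3 (3.94), Serpina3g (3.47), Gstt4 (3.35), Kcnab1 (3.29) and Bex1 (3.24). Those of Shisa3, Gstt4 and Bex1 are fitted values with no exact size or order, since Shisa3 was not well above background with DMSO in EPM, Gstt4 with DMSO in either cell type and Bex1 in any BMDM channel at 12 h. The largest negative ones were those of Fpr1 (-5.21), Tlr2 (-4.90), Slco4a1 (-4.43), Ifit3 (-4.18) and Tmem178 (-4.11).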

How the results depend on the processing

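With arrays as samples, 2381 genes were higher and 3589 lower at 12 h. Both times shared a control in this setting. The comparison of 12 h with 1 h was thus KLA 12 h against KLA 1 h, with 1825 genes higher and 2221 lower. The EPM control was the untreated array and the DMSO 12 h array. Genes with a larger and a smaller response in BMDM than in EPM numbered 218 and 214. Without normalization between arrays the last 2 counts were 2127 and 6996, and 2359 genes were lower over 2-fold. With processed signals 2046 genes were higher and 2778 lower over 2-fold. With each channel left out in turn, 4416 to 4472 genes were higher and 5803 to 5851 lower at 12 h, 1075 to 1089 and 1559 to 1598 of them over 2-fold. The counts were then 3875 to 3913 and 4800 to 4866 for 12 h against 1 h, and 3783 to 3857 and 3586 to 3668 for BMDM against EPM. With dye as the replicate block, 5458 genes were higher and 6772 lower, 4932 and 5799 for 12 h against 1 h and 5215 and 4770 against EPM, and 10 of 243 results of single genes became called while none was lost. Signs turned without normalization between arrays for Adgre1 (0.10), Cd80 (-0.17), Myc (-0.29) and Tlr4 (-0.29), with the mean of probes for Maf (0.39) and Pfkp (-0.052), and in the authors' values for Adgre1 (0.32), Ctsb (0.11), Ctsd (0.10), Ctsl (0.16) and Sdhb (0.14). With arrays as samples 33 of the 243 gene calls were lost, Tnf, Cd14, Cebpb, Tlr2, Irf9, H2-Ab1 and Cx3cr1 among them. The number of lower genes in a list was 10 with arrays as samples for surface receptors (17), 4 for LXR (8) and for cycle inhibitors (7), and 2 for complement and for cell death (4 each), and it was 3 of 19 in the authors' values for glycolysis (9). The cause of these changes was not tested. Signal over background limits the bounds given for genes that were not well above it.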
